A study of Mus musculus with 70 samples.

Results

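The 8 genes that the study placed in its kidney primary tumour signature and that are described here, Arhgap33, Dnajc12, Padi3, Dyrk4, Mtmr7, Btg3, Cyba and Adam8, were followed through every passage of mouse renal carcinoma cells. They are 8 of the 21388 genes with a probe on the arrays and were chosen by name, through all non-control probes annotated to them (10 probes). RENCA cells, a renal adenocarcinoma line of BALB/c mice, carried green fluorescent protein (GFP) in all groups. They were measured before any injection (P0, 2 RNA samples) and then at 6 passages (P1 to P6), each a cycle of growth in female BALB/c mice, 6 weeks old per the study's methods, and recovery. KPT cells were recovered from kidney tumours that grew under the capsule of the left kidney (5, 2, 2, 3, 5 and 5 samples from P1 to P6). T-LM cells were recovered from the lung after tail vein injection (5, 2, 3, 4, 6 and 4 samples), and K-LM cells from lung metastases of mice with cells placed under the kidney capsule (1, 1, 5, 3, 4 and 3 samples). The methods describe digestion of the tissue and culture until cells without GFP were gone, whereas the sample labels describe homogenisation with a tissue disruptor, and markers of host cells are therefore given beside the results.

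Arhgap33 encodes a GTPase-activating protein, Dyrk4 a kinase that phosphorylates its own tyrosine and the serines and threonines of its substrates, and Mtmr7 a myotubularin-family phosphatase of phosphoinositides. Padi3 encodes a peptidylarginine deiminase, which converts arginine in proteins to citrulline and is best known from hair follicles and skin. Dnajc12 encodes a J-domain co-chaperone of the aromatic amino acid hydroxylases, and Btg3 a member of the BTG/TOB family of antiproliferative proteins. Cyba encodes the membrane subunit that stabilises the catalytic subunit of NADPH oxidase, the superoxide-forming enzyme of phagocytes, and Adam8 encodes a membrane-bound metalloprotease that is prominent on leukocytes. Serial passage in an animal can change such transcripts in the cancer cells and can also change how many host cells are recovered with them, and in bulk RNA a change in the share of cells cannot be told apart from a change in RNA per cell.

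The study chose these genes on P0 and on the KPT passages P2 to P6, and it also placed Arhgap33, Btg3, Dnajc12 and Dyrk4 in the signature of T-LM, whereas 0 of the 8 were in the K-LM signature. By its methods, a signature gene also had to be prognostic for survival in a human kidney cancer cohort (TCGA-KIRC). Values of P0 and of KPT from P2 on are therefore given as a description with no test, and so are T-LM values of the 4 genes chosen there too. Tests were kept for contrasts between groups that had no part in placing the tested genes in a signature. Most fits also held arrays of P0 or of KPT from P2 on. Those arrays entered the estimate of spread and, where used, the slide term, so the tests are not independent of them. Absence of a gene from the T-LM or K-LM signature also rested on values of that route from P2 on. Tests with those samples are therefore not fully free of the choice. A level is log2 of an array's processed signal for a probe minus the 75th percentile of that array, taken over probes detected everywhere, so that 0 means as bright as that percentile and a step of 1 is a doubling. Levels of different genes come from different probes and were not set against each other. A probe counts as detected where the scanner software called it well above background.

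Of the 70 arrays, 8 were on a slide scanned later with another software version. It held all 3 K-LM P6 samples and second arrays of 5 RNA samples (KPT P6 replicates 1, 2 and 4 and the P0 pair), which gave a slide term for the fits. Between 25.3% and 55.3% of probes were well above background per array. Keratin Krt18, a marker of the epithelial tumour line, was detected in all 65 samples at levels of 2.85 to 4.20, and so was the renal lineage factor Pax8, whereas Epcam was detected in 4 samples and the kidney tubule marker Umod in 0. One T-LM P1 sample, with no replicate number in its title (LOT1), stood apart from the other 4, and T-LM P5 replicate 1 had the highest summed fibroblast marker level of all samples (42.8, on the linear scale of the levels, against 1.48 to 2.98 in the other 5 T-LM P5 samples).

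In P0 cells Padi3 alone was detected in both samples on the first arrays, at -4.91 and -4.55, and the other 7 members lay at background there. Padi3 lay at -4.85 and -4.30 on the repeat arrays of P0, where Mtmr7 passed background in replicate 1 at -7.45. From P5 on, every sample of every route lay above all P0 arrays for all 8 genes. At KPT P6 this held for 8 of 8 members against 12.3% of all probes tested, at T-LM P6 for 8 of 8 against 17.6%, and at K-LM P6 for 8 of 8 against 19.5%. At KPT P5 it held for 8 of 8 members against 10.0%. P0 and KPT values from P2 on helped to choose the genes, as T-LM values did for 4 of them, so all counts against P0 are descriptions and nothing is read from them.

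The genes did not reach that state at the same passage. At KPT P1, which had no part in the choice although P0 did, all 5 samples lay above P0 for 6 of 8 members (Arhgap33, Padi3, Mtmr7, Btg3, Cyba and Adam8), against 15.0% of probes. At T-LM P1 this held for 2 of 8 (Arhgap33 and Btg3), against 14.6%, and without LOT1 for 5 of 8 (Dnajc12, Cyba and Adam8 too), against 23.8%. The KPT count was 5 of 8 at P2 (15.9% of probes), 6 of 8 at P3 (19.5%) and 6 of 8 at P4 (15.3%). It did not grow evenly, because Btg3 and Cyba were above P0 at P1, at background at P2 and P3 and above it again later. Dyrk4 and Dnajc12 were not above P0 in all KPT P1 samples, Dnajc12 being so in 3 of 5: Dyrk4 lay wholly above P0 in KPT from P2 and Dnajc12 from P3. Some of these counts rest on small gaps between values at background. The lowest KPT P1 value of Mtmr7 was -7.11, against a highest P0 array of -7.14. At T-LM P1 the lowest values were -7.71 for Btg3 (LOT1) and -7.80 for Arhgap33, against -7.82 and -7.96. At KPT P2 the lower value of Adam8 was -7.90, against -8.04.

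**Figure D1:**
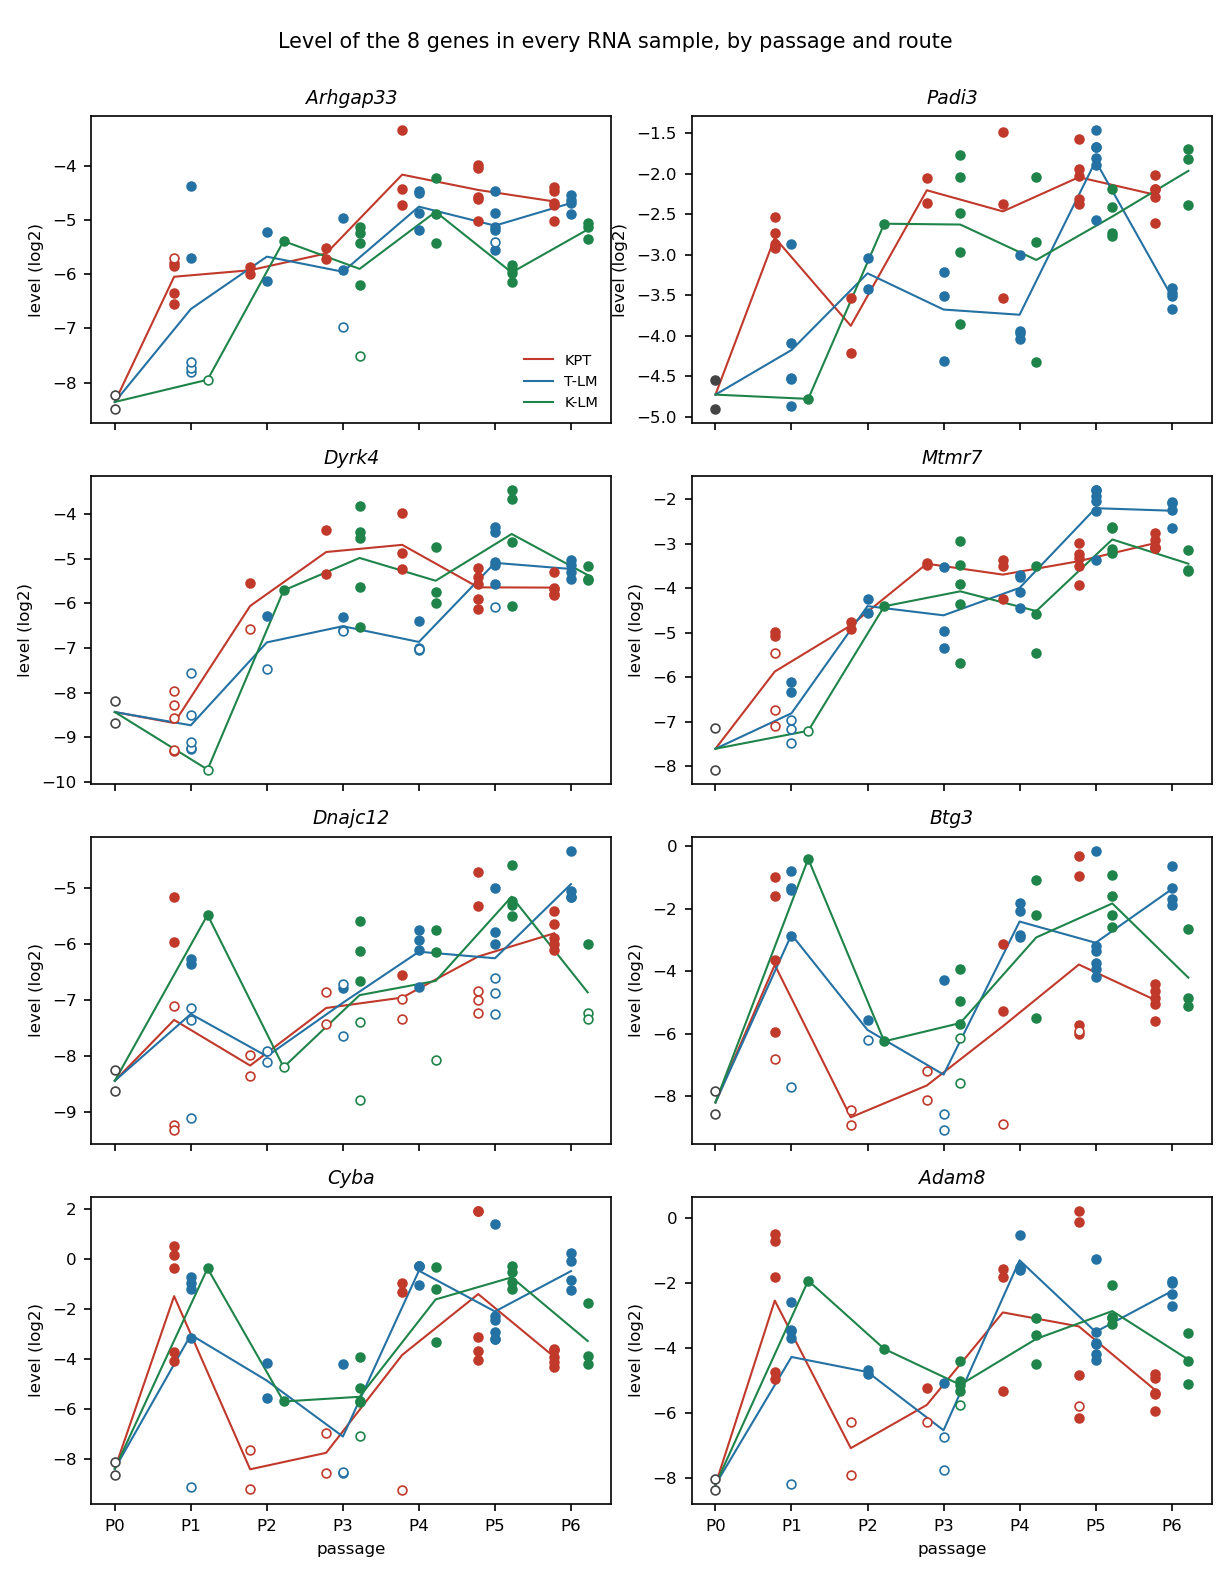
Level of each of the 8 genes (log2 of the signal relative to the array's 75th percentile, y axis) at P0 and at passages P1 to P6 (x axis) in KPT, T-LM and K-LM; each point is an RNA sample, open where its probe was not well above background, and lines join the group means. Mtmr7 climbs from -7.61 at P0 to -2.99 (KPT), -2.26 (T-LM) and -3.45 (K-LM) at P6, whereas Cyba is high at KPT P1, at background at KPT P2 and P3 and split between samples at KPT P4 and P5.

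Arhgap33, the GTPase-activating protein, was above P0 in every passaged sample of all 3 routes (22 of 22 KPT, 24 of 24 T-LM and 17 of 17 K-LM samples), though the K-LM P1 sample only just, at -7.95 against a highest P0 array of -7.96, both at background. In KPT it lay at -6.55, -6.34, -5.70, -5.80 and -5.85 at P1, where the third value was not well above background. It then stood at -5.99 and -5.86 at P2, at -5.72 and -5.51 at P3, and at -4.42, -3.34 and -4.73 at P4. The mean had passed the midpoint between P0 and P6 at P1 and was highest at P4, with -4.45 ± 0.43 (SD, n = 5) at P5 and -4.66 ± 0.25 (SD, n = 5) at P6. From P0 to KPT P6 this was at least 2.93-fold, a bound that rests on the detection limit of the P0 arrays. In T-LM the P1 samples split, with replicate 2 at -4.37, LOT1 at -5.70 and the other 3 between -7.80 and -7.62 at background, and the 4 P6 samples lay at -4.89, -4.63, -4.54 and -4.69. The 3 K-LM P6 samples lay at -5.05, -5.13 and -5.34. By group means the lung routes passed the midpoint at P2. The T-LM P1 mean of -6.64 lay close to its midpoint of -6.52, and K-LM P1 was 1 sample. KPT and T-LM overlapped at P1, so a later rise than in KPT was not shown.

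Dyrk4, the kinase, was not detected in any of the 11 P1 samples (levels of -9.73 to -7.57), so P1 could not be compared. In KPT it first passed background in P2 replicate 1, at -5.54, with replicate 2 at -6.58 not passing. It was highest in the middle of the KPT series, at -5.34 and -4.36 at P3 and at -5.23, -3.97 and -4.87 at P4, before -5.64 ± 0.38 (SD, n = 5) at P5 and -5.65 ± 0.20 (SD, n = 5) at P6. T-LM lay lower than KPT at P3 and P4, with means of -6.51 ± 0.18 (SD, n = 3) and -6.87 ± 0.31 (SD, n = 4). Dyrk4 was detected in 2 samples of each of these T-LM groups. The T-LM mean first passed its midpoint of -6.83 at P3, just missed it at P4 and passed it for good at P5. The T-LM P5 median was -5.11, between -6.09 and -4.29. At P6 the 4 T-LM samples lay at -5.45, -5.15, -5.30 and -5.02. K-LM had -5.71 in the P2 sample and -6.52, -4.53, -5.64, -4.40 and -3.82 at P3.

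Mtmr7, the phosphoinositide phosphatase, had a KPT mean that was higher at each passage than at the one before, except from P3 to P4. KPT lay at -6.73, -7.11, -5.47, -5.08 and -5.00 at P1, with the last 2 detected, at -4.75 and -4.92 at P2, at -3.43 and -3.48 at P3, and at -3.50, -4.24 and -3.36 at P4. The KPT mean was -3.40 ± 0.35 (SD, n = 5) at P5 and -2.99 ± 0.15 (SD, n = 5) at P6, at least 9.29-fold above P0. T-LM P1 overlapped P0 (-6.11, -7.48, -6.96, -7.18 and -6.34), after which T-LM reached a median of -1.99 at P5 and -2.09, -2.65, -2.24 and -2.07 at P6. K-LM lay at -4.41 at P2, at -5.68, -4.37, -2.94, -3.91 and -3.48 at P3 and at -3.59, -3.15 and -3.62 at P6. All 3 routes were past the midpoint from P2 on. The other Mtmr7 probe, detected on 32 of 70 arrays against 60, gave levels that correlated at r = 0.94 over the 65 samples.

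Padi3, the arginine deiminase, was the only member detected in every sample. KPT P1 was tight and already high, at -2.92, -2.73, -2.87, -2.53 and -2.90. KPT P2 was lower, at -4.22 and -3.54, followed by -2.05 and -2.36 at P3, -2.38, -3.54 and -1.48 at P4, and -2.31, -2.37, -1.56, -2.03 and -1.94 at P5. At KPT P6 the 5 samples lay at -2.61, -2.02, -2.18, -2.19 and -2.29, a fitted 5.54-fold above P0 (difference 2.47, SE 0.35). T-LM did not hold such a level. It lay at -2.87, -4.54, -4.52, -4.09 and -4.87 at P1, where 2 of 5 samples exceeded P0, at -3.00, -4.04, -3.97 and -3.94 at P4, at a median of -1.73 at P5 and again low at -3.50, -3.47, -3.41 and -3.67 at P6. The 6 T-LM P5 samples, between -2.57 and -1.46, lay above all T-LM samples of the other passages.

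Dnajc12, the co-chaperone, stayed near the detection limit, with 35 of 65 samples detected. KPT P1 was split, with replicates 4 and 5 at -5.17 and -5.97 and the other 3 at background (-9.24, -9.33 and -7.11). KPT P2 and P3 lay at background, KPT P4 at -6.98, -7.35 and -6.56 with the last detected, and KPT P5 at -4.73 and -5.33 in replicates 1 and 2, with the other 3 between -7.24 and -6.84 at background. Only at P6 were all 5 KPT samples detected, at -5.64, -6.01, -6.11, -5.42 and -5.89, at least 1.31-fold above P0. T-LM P6 lay higher, at -5.06, -4.34, -5.17 and -5.17. K-LM peaked at P5 (-5.51, -5.23, -5.31 and -4.59) and lay lower at P6, at -7.25, -7.35 and -6.01, with the last detected.

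Btg3, Cyba and Adam8 formed a different group, because their samples differed within a passage by far more than the samples of the other members did. The pooled SD within groups was 1.87 for Btg3, 2.08 for Cyba and 1.5 for Adam8, against 0.55 to 0.67 for Arhgap33, Padi3, Dyrk4 and Mtmr7 and 0.95 for Dnajc12. In 8, 8 and 5 of the 17 groups with several samples, respectively, the levels of Btg3, Cyba and Adam8 spanned more than 3 log2 units. Over the 65 samples their levels correlated with each other at r = 0.94 (Btg3 and Cyba), 0.84 (Btg3 and Adam8) and 0.91 (Cyba and Adam8). Their r with Arhgap33, Padi3, Dyrk4 and Mtmr7 lay between -0.08 and 0.24, and Dnajc12 stood between, at 0.59 to 0.67 with the 3 genes. These correlations describe samples that share routes, passages and slides.

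Their promoters are shown because the 3 genes moved together, with that of Padi3 for contrast. RefSeq (GRCm38.p6) gave promoters for 5 of the 8 members. Each sequence is the 250 bases before a transcript start on the strand of the gene, 5' to 3', and capitals mark a CCAAT box (CCAAT, or ATTGG on the other strand) or a GC box (GGGCGG, or CCGCCC on the other strand). They lie on the minus strand at chr16:78377182-78377431 and chr16:78376811-78377060 (the 2 starts of Btg3), chr8:122432941-122433190 (Cyba), chr7:139992563-139992812 (Adam8) and chr4:140810649-140810898 (Padi3).
Btg3 first start: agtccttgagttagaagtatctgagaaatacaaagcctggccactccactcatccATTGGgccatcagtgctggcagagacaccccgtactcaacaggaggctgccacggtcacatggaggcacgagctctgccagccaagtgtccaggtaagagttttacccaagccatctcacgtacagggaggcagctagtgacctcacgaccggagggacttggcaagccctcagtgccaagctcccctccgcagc
Btg3 other start: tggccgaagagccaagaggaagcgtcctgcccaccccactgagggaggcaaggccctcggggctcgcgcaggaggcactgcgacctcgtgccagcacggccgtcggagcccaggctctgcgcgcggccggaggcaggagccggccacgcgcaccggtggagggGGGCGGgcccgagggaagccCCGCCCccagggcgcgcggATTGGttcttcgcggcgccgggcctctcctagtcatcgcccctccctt
Cyba: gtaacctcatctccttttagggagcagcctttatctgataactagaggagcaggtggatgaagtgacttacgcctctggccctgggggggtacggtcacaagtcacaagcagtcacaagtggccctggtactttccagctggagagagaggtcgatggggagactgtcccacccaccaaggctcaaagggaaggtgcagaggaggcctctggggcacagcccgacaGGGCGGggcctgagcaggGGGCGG
Adam8: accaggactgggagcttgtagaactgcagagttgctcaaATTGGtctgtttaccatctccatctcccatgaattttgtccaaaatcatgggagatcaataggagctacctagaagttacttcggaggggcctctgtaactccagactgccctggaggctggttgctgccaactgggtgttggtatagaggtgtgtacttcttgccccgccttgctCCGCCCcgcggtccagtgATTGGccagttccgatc
Padi3: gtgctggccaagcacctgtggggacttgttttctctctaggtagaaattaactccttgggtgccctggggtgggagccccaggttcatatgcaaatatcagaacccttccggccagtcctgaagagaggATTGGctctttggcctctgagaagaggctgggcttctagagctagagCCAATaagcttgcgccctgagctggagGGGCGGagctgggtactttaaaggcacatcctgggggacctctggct
All 250-base windows before transcript starts in that table (32851) were searched on both strands: 33.8% held CCAAT and 32.7% held GGGCGG. Cyba held 2 GC boxes, at bases -24 to -19 and -6 to -1 before the start, and 0 CCAAT boxes, and Adam8 and Padi3 held 2 CCAAT boxes and 1 GC box each. The start of Btg3 at the lower coordinate had 75.2% G and C, against a median of 52.4% over all promoters, with 2 GC boxes and 1 CCAAT box, and the other start had 57.2% and 1 CCAAT box. TATAAA (in 12.4% of promoters), the AP-1 site TGANTCA (6.75%), the ETS site GAGGAAGT (2.44%) and the E-box CACGTG (6.02%) were in 0 of the windows printed and also in 0 of the single Dyrk4 window, which held 1 CCAAT box. No motif among the 6 was thus shared by Btg3, Cyba and Adam8 at every start, and a match here is a description of letters only.

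Cyba, the oxidase subunit, was at background in P0 (-8.65 and -8.13) and high at the first kidney passage, at -4.06, -3.73, -0.35, 0.53 and 0.17. It was at background again in all 4 KPT samples of P2 and P3 (-9.20 to -6.95). At KPT P4 replicates 1 and 3 lay at -1.33 and -0.95 and replicate 5 at background, at -9.25. KPT P5 split as well, with replicates 1 and 2 at 1.93 and 1.90 and the other 3 at -3.13, -4.05 and -3.68. KPT P6 was even, at -4.11, -3.59, -3.94, -3.65 and -4.31, at least 4.89-fold above P0. Replicates 3, 4 and 5 of KPT P1, 1 and 3 of KPT P4 and 1, 2 and 3 of KPT P5 thus lay above all 5 KPT P6 samples. The other Cyba probe (42 of 70 arrays detected, against 57) correlated at r = 0.96 with this one.

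In the lung routes Cyba was also high at the start. T-LM P1 lay at -3.17, -0.72, -0.96 and -1.20, with LOT1 at -9.14 at background. T-LM P3 lay at -8.58, -8.54 and -4.20 with only the last detected, T-LM P4 at -1.04, -0.29, -0.27 and -0.28, and T-LM P6 at -0.10, 0.25, -0.84 and -1.26. T-LM P5 had a median of -2.67 between -3.20 and 1.41, the highest being replicate 1. K-LM lay at -0.38 and -5.70 in the single P1 and P2 samples, at -5.15, -7.07, -3.92, -5.73 and -5.70 at P3, at -3.34, -1.22 and -0.31 at P4, at -0.94, -1.21, -0.29 and -0.51 at P5 and at -3.89, -4.19 and -1.77 at P6.

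Btg3, the antiproliferative factor, followed the same samples. KPT P1 lay at -5.93, -6.81, -3.66, -1.59 and -1.0, KPT P4 at -3.14, -5.26 and -8.88, KPT P5 at -0.32, -0.96, -6.01, -5.72 and -5.92, and KPT P6 at -5.59, -5.06, -4.64, -4.87 and -4.42, at least 2.45-fold above P0. All 4 samples of KPT P2 and P3 were at background (-8.91 to -7.21). T-LM P1 lay at -2.88, -0.81, -1.40 and -1.34 with LOT1 at -7.71, and T-LM P6 at -1.32, -0.63, -1.69 and -1.87. At K-LM P6 the samples lay at -4.86, -5.11 and -2.66.

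Adam8, the metalloprotease, shared the split. KPT P1 lay at -4.74, -4.95, -1.83, -0.51 and -0.73, KPT P4 at -1.58, -1.83 and -5.34, KPT P5 at 0.21, -0.15, -4.83, -6.16 and -5.79, and KPT P6 at -5.41, -4.81, -4.92, -5.94 and -5.38, at least 1.89-fold above P0. Unlike Btg3 and Cyba it was above P0 in all 22 passaged KPT samples, with P2 at -7.90 and -6.27 below detection. T-LM P4 was its highest T-LM group, at -1.51, -1.62, -0.54 and -1.58, and T-LM P6 lay at -2.0, -2.36, -1.96 and -2.73. K-LM P6 lay at -4.42, -5.11 and -3.56.

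Markers of host cells were high in the same samples. Tyrobp, a signalling adaptor of myeloid cells, lay at -5.41, -4.90, -2.17, -1.24 and -2.16 at KPT P1, at -2.69, -1.76 and -9.15 at KPT P4, and at -0.07, 0.53, -4.55, -6.05 and -5.44 at KPT P5. Col1a1, a collagen gene of fibroblasts, lay at 2.79 and 0.72 in KPT P5 replicates 1 and 2 and between -4.94 and -4.07 in the other 3. The macrophage marker Adgre1 was detected in replicates 3, 4 and 5 of KPT P1, 1 and 3 of KPT P4 and 1 and 2 of KPT P5, which are the samples with the highest Cyba of these 3 groups. Over the whole lists, KPT P1 samples detected 10 to 14 of 16 leukocyte markers (summed level 4.34 to 6.89) and 5 to 8 of 8 fibroblast markers (0.347 to 10.9), and KPT P5 samples 9 to 14 of 16 (4.20 to 10.8) and 4 to 8 of 8 (0.43 to 26.3). P0 samples detected 5 to 7 of 16 (2.18 to 2.64) and 0 of 8 on the first arrays (0.0377 to 0.0399). Of the leukocyte markers, Cd68, Itgam, Cd3e, Cd14 and Csf1r were detected in all 65 samples, P0 included. Cd68 was the brightest of the list by median over the samples (1.51, followed by Lcp1 at -1.75). Counts and summed levels of leukocyte markers therefore do not measure host cells alone. The part of host cells in the levels of Btg3, Cyba, Adam8 and Dnajc12 was not tested.

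All 5 KPT P6 samples held Cyba between -4.31 and -3.59 and Adam8 between -5.94 and -4.81. They detected 8 to 11 of 16 leukocyte markers (summed level 3.74 to 4.88). Lyz2, Cd14 and Csf1r were detected in 5 of 5, Tyrobp in 4 of 5 at -6.32 to -5.58, Ptprc, the common leukocyte antigen, in 2 of 5 at -6.87 and -6.83, and Adgre1 and Laptm5 in 0 of 5. Cd14 and Csf1r, like Cd68, Itgam and Cd3e, were detected in all 65 samples, P0 included. On the first P0 arrays Cd14 lay at -2.79 and -2.91, against -3.32 to -2.66 at KPT P6. Csf1r lay at -4.48 and -3.62, against -5.07 to -3.44. Lyz2 lay at -5.80 (detected) and -6.56, against -6.34 to -4.88. Of 8 fibroblast markers the KPT P6 samples detected 5 to 7 (0.422 to 1.15), with Col1a1 at -5.00 to -2.71. The part of host cells in these levels was not tested. Levels of the long mRNA index, the median level of 17 long mRNAs minus that of 75 ribosomal protein mRNAs and a sign of RNA quality or amplification, had group means of -7.67 at P0, and, from P1 to P6, of -7.04, -8.99, -9.13, -7.54, -8.67 and -7.78 in KPT. For T-LM they were -6.91, -8.58, -8.60, -8.15, -8.86 and -7.95, for K-LM -7.38, -8.33, -9.17, -7.59, -9.40 and -7.49. The lowest mean was at P3 in KPT and at P5 in T-LM and K-LM, and their part in the courses described here was not tested.

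**Figure D2:**
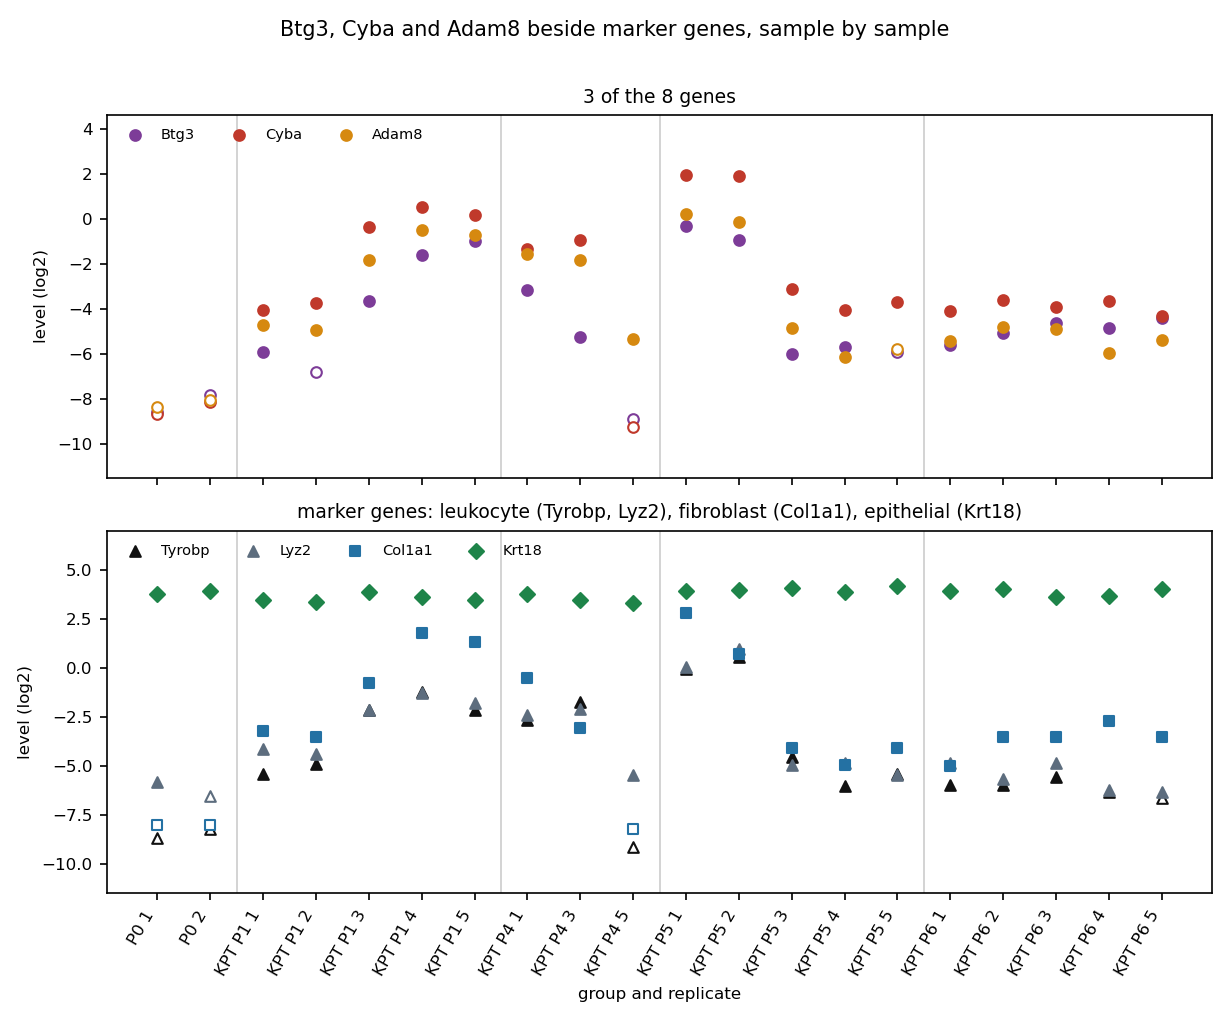
Levels (y axis, log2) in each RNA sample of P0 and of KPT P1, P4, P5 and P6 (x axis, group and replicate): Btg3, Cyba and Adam8 in the upper panel, and the markers Tyrobp and Lyz2 (leukocytes), Col1a1 (fibroblasts) and Krt18 (epithelium) in the lower, with open symbols where a probe was not well above background. KPT P5 replicates 1 and 2, with Cyba at 1.93 and 1.90, have Tyrobp at -0.07 and 0.53 and Col1a1 at 2.79 and 0.72, above all other samples shown except for Col1a1 in KPT P1 replicates 4 and 5, while Krt18 stays between 3.28 and 4.20.

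The first comparison open to a test asks whether the kidney differed from the lung at the first passage, which the study left out of the choice. Between KPT P1 and T-LM P1 (5 samples each), limma called 0 of the 7 members that could be tested at an adjusted p of 0.01 or less, against 0% of 23561 probes, and 1 member had an unadjusted p under 0.05. That was Padi3, 2.62-fold higher in KPT (difference 1.39, SE 0.33, adjusted p = 0.286), with 4 of 5 T-LM samples below all 5 KPT samples. Over all probes 2148 had an unadjusted p under 0.05. The differences of the other 6 were 0.60 (SE 0.63) for Arhgap33, 0.94 (SE 0.46) for Mtmr7, -0.11 (SE 0.87) for Dnajc12, -0.97 (SE 1.51) for Btg3, 1.55 (SE 1.65) for Cyba and 1.73 (SE 1.22) for Adam8. The median over the 7 was 0.94, against -0.05 over all probes. LOT1 decided some of these values: without it, Cyba differed by 0.02 (SE 1.07), Adam8 by 0.76 (SE 0.97) and Btg3 by -2.19 (SE 1.18), and again 0 members were called. The fit did not pair same-numbered samples. With the number as a replicate block, 0 of 23143 probes were called. Leukocyte markers had a median difference of 1.52 and fibroblast markers one of -1.09, with 0 of 14 and 0 of 8 tested markers called.

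**Figure D3:**
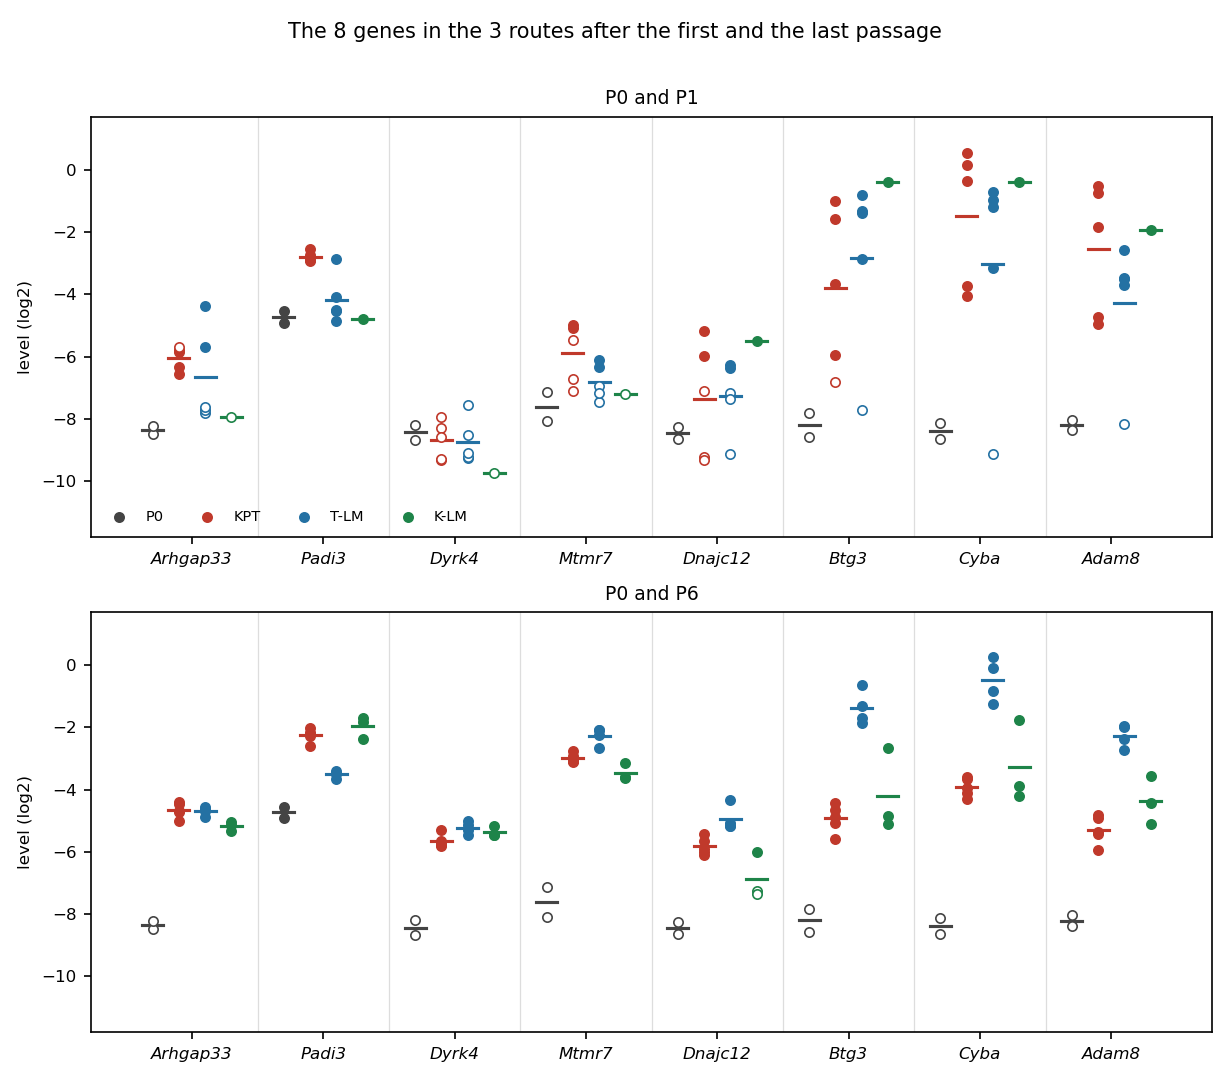
Levels of the 8 genes (y axis, log2; read within a gene only) at P1 (one panel) and P6 (the other), with a point per RNA sample of P0, KPT, T-LM and K-LM and a bar at each mean. At P1 the KPT and T-LM samples overlap for all 8 genes; at P6 Padi3 is lower in T-LM (-3.67 to -3.41) than in KPT (-2.61 to -2.02) and K-LM (-2.38 to -1.69), and Cyba is highest in T-LM (-1.26 to 0.25).

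At P6 KPT lay wholly below T-LM for more of the members than it lay above. All 5 KPT samples lay above all 4 T-LM samples for 1 of 8 members, Padi3 (fitted difference 1.24, SE 0.15), against 6.51% of probes, and at P5 Padi3 did not separate them (-0.20). All 5 lay below T-LM for 5 of 8 members, Dnajc12 (-0.71, SE 0.33), Mtmr7 (-0.70, SE 0.18), Btg3 (-3.38, SE 0.46), Cyba (-3.25, SE 0.44) and Adam8 (-2.89, SE 0.32), against 9.40% of probes. Arhgap33 (-0.01, SE 0.13) and Dyrk4 (-0.25, SE 0.25) overlapped. The 4 T-LM P6 samples detected 11 to 15 of 16 leukocyte markers (summed level 3.83 to 4.56) and 7 to 8 of 8 fibroblast markers (1.97 to 6.74), with Tyrobp at -3.33 to -1.56. They also detected 2 to 4 of 6 lung epithelial markers (summed level 0.120 to 0.617), with the surfactant gene Sftpc at -4.19 to -1.11, which was at background in KPT P6 on the first arrays. The part of these cells in the T-LM levels was not tested, and KPT P6 samples helped to choose the genes, so the differences carry no test.

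Against K-LM P6, KPT P6 lay wholly higher for 2 of 8 members, Arhgap33 (0.59, SE 0.16) and Mtmr7 (0.42, SE 0.21), against 20.4% of probes, and wholly lower for 0 of 8, against 15.8%. All K-LM P6 arrays were on the late slide. Among arrays of that slide alone (3 KPT and 3 K-LM), KPT lay wholly above K-LM for Arhgap33 (-4.77 to -4.51 against -5.34 to -5.05) and Dnajc12 (-5.79 to -5.71 against -7.35 to -6.01), K-LM lay above KPT for Dyrk4, and the other 5 members overlapped, Mtmr7 included. Between the 2 arrays of the same RNA, the levels differed by -0.07 to 0.26 for Padi3 and by -0.30 to 0.24 for Mtmr7, but by -1.52 for Dyrk4 and Dnajc12 in P0 replicate 1, where they were at background.

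At P3 to P5 the members that separated KPT from the lung routes varied. At P3 both KPT samples lay above all 3 T-LM samples for 3 of 8 members, Padi3 (1.47, SE 0.56), Dyrk4 (1.66, SE 0.67) and Mtmr7 (1.16, SE 0.73), against 6.21% of probes, and below them for 0 of 8, against 4.67%. At that passage 0 of 8 separated KPT from K-LM, against 2.88% of probes above and 1.89% below. At P4 Dyrk4 was wholly higher in KPT than in T-LM (2.18, SE 0.37), 1 of 8 members against 10.8% of probes, and Btg3 was wholly lower (-3.35, SE 1.28), 1 of 8 against 5.84%, while 0 of 8 separated KPT from K-LM, against 4.54% of probes above and 3.78% below. At P5, 0 of 8 separated KPT from T-LM, against 4.83% of probes above and 2.83% below, and Arhgap33 was wholly above K-LM (1.52, SE 0.24), 1 of 8 members against 12.6%, with 0 of 8 wholly below, against 8.58%. A separation of groups as small as 2 and 3 samples is weak, and no member was above T-LM at every passage from P3 to P6.

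**Figure D4:**
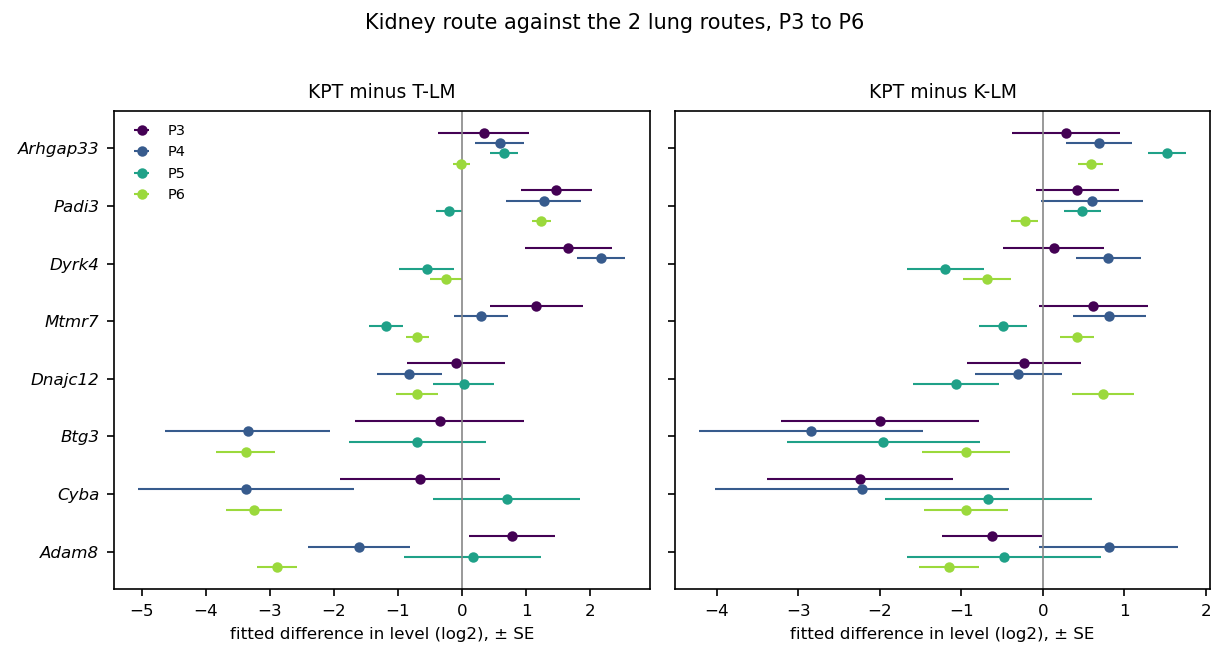
Fitted difference in level (x axis, log2, with bars of 1 SE) of KPT from T-LM (left) and from K-LM (right) for each of the 8 genes (y axis), with a point for each of P3, P4, P5 and P6. Padi3 is above T-LM at P3 (1.47), P4 (1.28) and P6 (1.24) but not at P5 (-0.20), and Btg3, Cyba and Adam8 have differences from T-LM of -3.38, -3.25 and -2.89 at P6.

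The lung routes can be tested against each other for Padi3, Mtmr7, Cyba and Adam8, which are in neither lung signature. Their absence from these signatures itself rested on values of the lung routes. At P6 (3 K-LM and 4 T-LM samples) limma called 3 of 4, against 11.6% of 22076 probes. Padi3 was higher in K-LM, 2.76-fold (difference 1.47, SE 0.20, adjusted p = 5.47e-05), with -1.69, -2.38 and -1.82 wholly above the T-LM samples. Mtmr7 was lower in K-LM, 2.17-fold (-1.11, SE 0.25, adjusted p = 0.00362), and so was Adam8, 3.33-fold (-1.74, SE 0.43, adjusted p = 0.00785). Cyba missed the threshold (-2.31, SE 0.61, adjusted p = 0.0112) though its groups did not overlap. It passed with normexp (adjusted p = 1.53e-04), with the deposited values (1.47e-04), with a floor on dim signals (0.00118), with a filter on all arrays (0.00853) and without a slide term (-2.80, 8.64e-04). The late slide held all K-LM P6 samples, and the size of the slide effect came from the 5 repeated samples. The P0 repeats, at background, differed by -1.51 and -1.28 for Cyba and by -0.98 and -1.15 for Adam8. The KPT P6 repeats differed by -0.26 to 0.27 for Cyba and by -0.15 to 0.59 for Adam8. The fits of Cyba and Adam8 and their adjusted p thus rest in part on values at background.

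These calls differed in how far they depended on single samples. Padi3 was called without any 1 of the 7 samples, but 0 of 4 members were called when all 70 arrays entered one model, where the SE was larger (Padi3 1.46, SE 0.43, adjusted p = 0.0288). With the 75th percentile over all probes, or with no filter on dim probes, Padi3 alone was called. Mtmr7 was not called without K-LM P6 replicate 1 or 3 (adjusted p = 0.0176 and 0.013), and its other probe differed by -0.47 (SE 0.44, adjusted p = 0.491). Adam8 was not called without K-LM P6 replicate 1 or 2 (0.0269 and 0.0435) or T-LM P6 replicate 1, 2 or 3 (0.0199, 0.0129 and 0.0181). Adam8 also missed the threshold when the fit held only the 2 groups and the repeated samples (-1.74, adjusted p = 0.0143). Cyba was called without K-LM P6 replicate 3 (-3.07, adjusted p = 4.69e-04) or T-LM P6 replicate 4 (-2.57, adjusted p = 0.00812), and its other probe was called with all samples (-2.67, SE 0.59, adjusted p = 0.00348). Leukocyte markers were lower in K-LM P6 in 8 of 14 tested, among them Tyrobp (-6.05, SE 0.47, adjusted p = 1.17e-07), which was at background in all 3 K-LM samples. Of 8 fibroblast markers 2 were lower, Col3a1 and Lum, of 4 lung epithelial markers 2, Sftpc and Sftpb (median difference of the 4, -2.32), and of 2 kidney tubule markers 1, Aqp1. The 3 K-LM P6 samples detected 8 of 16 leukocyte markers (summed level 3.22 to 4.23), Lyz2, Cd14 and Csf1r among them. Cd14 and Csf1r, like Cd68, Itgam and Cd3e, were detected in all 65 samples, P0 included. The K-LM P6 samples also detected 6 to 7 of 8 fibroblast markers (0.958 to 2.96). The part of these cells in the differences was not tested.

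Before P6 the lung routes did not separate for these genes under limma. At P3, 0 of 4 were called against 0% of 19078 probes, where 341 probes and 2 members, Padi3 (1.05, SE 0.45) and Adam8 (1.40, SE 0.53), had an unadjusted p under 0.05. At P4, 0 of 4 were called against 0.00936%, and Adam8 had an unadjusted p under 0.05 (-2.41, SE 0.80) with groups that did not overlap. At P5, 0 of 4 were called against 3.43%, with an unadjusted p under 0.05 for Padi3 (-0.69, SE 0.22, adjusted p = 0.0506) and Mtmr7 (-0.70, SE 0.28). The sign of Padi3 at P5 was opposite to that at P3, P4 and P6. Mtmr7 at P5 was called without T-LM P5 replicate 1 (-0.94, adjusted p = 0.00827), the sample with the high fibroblast markers.

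The study's own question of early against late passages, P3 against P6, can be put to both lung routes. In T-LM (3 and 4 samples) limma called 3 of the 4 genes that could be tested, all higher at P6, against 4.50% of 23492 probes. Mtmr7 rose 5.10-fold (difference 2.35, SE 0.41, adjusted p = 6.71e-04), and Cyba (6.62, SE 1.47, adjusted p = 0.00526) and Adam8 (4.27, SE 0.91, adjusted p = 0.0038) rose too. The groups did not overlap for any of them. Padi3 did not pass (0.16, SE 0.37, adjusted p = 0.846). Only 1 of 3 T-LM P3 samples detected Cyba and Adam8, so the size of their rise is set largely by values at background. The other probes of Mtmr7 and Cyba were called too, at least 2.61-fold and at least 12.5-fold higher.

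The calls of Cyba and Adam8 rested on few samples. Without T-LM P3 replicate 2 or 3 or T-LM P6 replicate 1, 2 or 3, the adjusted p of Cyba was 0.0471, 0.0203, 0.0158, 0.0178 and 0.0136, and that of Adam8 0.0244, 0.0183, 0.0121, 0.0106 and 0.0136. Over all 7 fits without a sample, the difference was 5.88 to 8.07 for Cyba and 3.66 to 5.00 for Adam8. Mtmr7 was called without any 1 of the 7 samples. In the same comparison 4 of 15 leukocyte markers were higher at P6 (Cd14, Fcgr3, Tyrobp and Fcer1g), as were 3 of 8 fibroblast markers (Pdgfrb, Dcn and Lum) and 3 of 4 lung epithelial markers (Sftpc, Sftpb and Ager). Tyrobp was at background in all 3 P3 samples and lay between -3.33 and -1.56 at P6. Long mRNAs had 17 of 17 fitted differences above 0 (median 0.87, 1 called). With the long mRNA index as a covariate, calls over all probes were 1484, against 1056. The part of these cells in the rise of Cyba and Adam8, and of the long mRNA shift in the 3 calls, was not tested.

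From T-LM P1 to P6 (5 and 4 samples) limma called 1 of 4 genes, Mtmr7, against 9.05% of probes. It rose (4.55, SE 0.36, adjusted p = 1.77e-08) from 2 of 5 samples detected to 4 of 4, and its other probe, at background in all 5 P1 samples, by at least 3.43-fold. Padi3 (0.66, SE 0.32), Cyba (2.55, SE 1.29) and Adam8 (2.02, SE 0.80) did not pass. Without LOT1 the difference was 1.02 (SE 0.91) for Cyba and 1.05 (SE 0.54) for Adam8, and 4.67 (SE 0.38) for Mtmr7, which was still called. In the same comparison 4 of 4 lung epithelial markers were higher at P6, as were 4 of 15 leukocyte markers (Ptprc, Lyz2, Fcgr3 and Lcp1), while Cd68 was lower. Long mRNAs had 17 of 17 fitted differences below 0 (3 called lower) and ribosomal protein mRNAs 74 of 75 above 0 (0 called). The part of these in the Mtmr7 rise was not tested.

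In K-LM (5 P3 and 3 P6 samples), whose signature holds none of the members, all 8 could be tested. Limma called 0 of 8 at the threshold, against 3.30% of 22699 probes, though all 8 fitted differences were positive and 2 had an unadjusted p under 0.05, Cyba and Adam8. Their median was 0.65, against 0.12 over all probes. Cyba came closest (2.81, SE 0.75, adjusted p = 0.0183) and was called without K-LM P3 replicate 3 (3.21, adjusted p = 0.00497). Btg3 differed by 1.78 (SE 0.95), Adam8 by 1.14 (SE 0.49), Mtmr7 by 0.67 (SE 0.49), Dnajc12 by 0.63 (SE 0.68), Arhgap33 by 0.62 (SE 0.42), Padi3 by 0.57 (SE 0.46) and Dyrk4 by 0.25 (SE 0.65). For Dyrk4 the group means ran the other way (-5.37 at P6 and -4.98 at P3), and the sign came from the slide term, with P0 repeats at background differing by -1.52 and -1.28 and KPT P6 repeats by 0.01, 0.05 and -0.45. The slide term also raised the fits of Dnajc12 (group means -6.87 at P6 and -6.92 at P3), Btg3 (-4.21 and -5.66), Cyba (-3.28 and -5.51) and Adam8 (-4.36 and -5.14). Their P0 repeats, all at background, differed by -1.52 to -0.98, and their KPT P6 repeats by -0.34 to 0.59. These fits and the adjusted p of Cyba thus rest in part on values at background. The term lowered the fits of Arhgap33 and Padi3. Long mRNAs rose in the same comparison, with 16 of 16 fitted differences above 0 (median 1.15, 2 called). When the long mRNA index was a covariate, Arhgap33 changed sign (-0.58), and calls over all probes fell from 750 to 86. The part of this shift in the positive differences of the members was not tested. Of 13 leukocyte markers 0 were called here, with a median difference of 0.23, and of 8 fibroblast markers 1, Pdgfrb, with a median of 2.86 and 8 of 8 positive. The part of fibroblasts in the Cyba difference was not tested.

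Whether the P3 to P6 change itself differed between the lung routes was tested after the values had been seen. Limma called 0 of 4 members, against 0.771% of 26341 probes. The K-LM change minus the T-LM change was 0.41 (SE 0.58, adjusted p = 0.833) for Padi3, -1.67 (SE 0.65, adjusted p = 0.201) for Mtmr7, -3.85 (SE 2.17, adjusted p = 0.467) for Cyba and -3.14 (SE 1.58, adjusted p = 0.389) for Adam8. Mtmr7 alone had an unadjusted p under 0.05. A change called in T-LM and not in K-LM was therefore not shown to differ between them.

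Relatives of the members were read from lists of their families. Of the peptidylarginine deiminases other than Padi3, all 3 tested were higher at T-LM P6 than at P3, Padi1 (1.94, SE 0.29), Padi2 (1.60, SE 0.36) and Padi4 (2.58, SE 0.41), although Padi3 was not. In K-LM 1 of 3 was higher at P6, Padi4 (2.85, SE 0.66, adjusted p = 0.00914). Padi4, the deiminase of neutrophil chromatin, was at background in P0 and lay at -6.21 to -5.79 in KPT P6, at -4.73 to -4.26 in T-LM P6 and at -3.97 to -3.86 in K-LM P6. Padi1 was lower in K-LM P6 than in T-LM P6 (-1.36, SE 0.29), opposite to Padi3.

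Of the other NADPH oxidase subunits 1 of 9 tested rose from T-LM P3 to P6, Rac2 (3.94, SE 0.37), the GTPase of the phagocyte oxidase, and 0 of 7 were called in K-LM. Cybb, the catalytic partner of Cyba in phagocytes, was at background in P0, in all 5 KPT P6 and in all 3 K-LM P6 samples and was detected in 2 of 5 KPT P1, 2 of 3 KPT P4, 2 of 5 KPT P5 and 1 of 4 T-LM P6 samples. From T-LM P1 to P6, Cybb, Ncf1 and Rac2 were higher and Duoxa1 lower, of 9 tested. With Cybb detected in 1 of 4 P6 samples, its call rests mostly on values at background. Among Cdc42 and the GTPase-activating proteins related to Arhgap33, Arhgap30 alone was called of 6 tested, higher at P6 than at P3 in T-LM (3.01, SE 0.38) and in K-LM (1.84, SE 0.41). The other families were quiet in both comparisons of P3 with P6, with 0 called of 7 ADAM proteases, 5 BTG and TOB genes, 4 DYRK kinases, 13 myotubularins and 7 aromatic amino acid hydroxylases and tetrahydrobiopterin enzymes. The 6 other genes of the kidney signature had 0 called between KPT P1 and T-LM P1. The study chose Col6a1 on K-LM too and Plau and Tprg on T-LM too, so only Il34, Fkbp10 and Rcn3 could be tested in the lung routes. Il34 was higher at T-LM P6 than at P3 and lower in K-LM P6 than in T-LM P6, and Fkbp10 and Rcn3 were not called.

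For each member the 3 genes with the most similar course over the 65 samples were named by Pearson's r among 13673 genes. Cyba was closest to Tmsb4x (r = 0.98), Fabp5 (0.97) and Slc16a3 (0.95), Btg3 to Ppic (0.99), Fstl1 (0.98) and Marcks (0.98), and Adam8 to Cyba itself (0.91), Slc15a3 (0.89) and Ccl9 (0.89). Mtmr7 was closest to Afp (0.90), Arhgap30 (0.88) and B4galnt2 (0.88), Arhgap33 to Wdfy4 (0.89), Adgrg1 (0.87) and Esrp1 (0.86), and Dyrk4 to Gm5168 (0.89), Slx (0.89) and 3830403N18Rik (0.88). Dnajc12 followed Stk39 (0.84), Lipo3 (0.83) and Abcb4 (0.81), and Padi3 followed Ccr7, Arap3 and Slc1a2 (0.79 each). The samples behind every r share routes, passages and slides.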

How the data were processed

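RNA of 65 samples was measured on 70 single-colour Agilent arrays (Cy5), of which 5 were second arrays of the same RNA. The intensity values, as deposited by the authors in the scanner software's files, are background-subtracted processed signals with flags for spots well above background. The authors also deposited a table of log2 values, which matched log2 of the quantile-normalized median signal to within 0.105. From the processed signal, log2 minus each array's 75th percentile over 12216 probes well above background on all arrays was computed, and the brightest probe stood for a gene. Group means used first arrays.

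Groups were compared with limma 3.58.1 in R 4.3.3 (statmod 1.5.0; two-sided, Benjamini-Hochberg adjustment over every probe that 2 or more arrays of a fit measured well above background, threshold an adjusted p of 0.01). A slide term, with RNA sample as random block, entered where the late slide was involved. Scripts were tested on simulated data. Members and lists were chosen with earlier results of these data known. The genes named were the 8 members, the 3 genes most like each, and list genes whose call or level is used. P-values measure only the spread between these samples, which may be technical, since the labels do not say that replicates came from separate mice or cultures. Precision is limited by the number of arrays, and 25.3% to 55.3% of probes were well above background per array.

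Same-numbered KPT P1 and T-LM P1 samples deviated together (r of 0.15 to 0.42 over 4 pairs). The numbers may thus pair these samples, but the labels do not say so, and other groups did not meet this. Alternatives changed the scaling, filter, floor, blocks, probe and samples. The files held no mean signal, so normexp (offset 50) used the median signal.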

Additional observations from a re-analysis of the deposited data

Results flagged for a closer look

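Of the 72 combinations of a gene and a group of 4 to 10 samples, 11 held a sample far from the others of its group, by the gap to its nearest neighbour relative to the group's range. Chance alone gives about 1 in 20 such groups where groups are independent. The combinations were not, since the same 9 groups recur for every gene and some genes moved together, so no excess is read from the count. T-LM P5 replicate 1, the sample with the highest summed fibroblast marker level, accounted for 4 of the 11: Btg3 at -0.14 (nearest -3.19), Cyba at 1.41 (nearest -2.30), Adam8 at -1.28 (nearest -3.50) and, on the low side, Mtmr7 at -3.37 (nearest -2.27). LOT1 of T-LM P1 had Adam8 at -8.17, below a nearest value of -3.71. At T-LM P4, Padi3 lay at -3.00 in replicate 1 (nearest -3.94), Dyrk4 at -6.40 in replicate 4 (nearest -7.00), Cyba at -1.04 in replicate 1 (nearest -0.29) and Adam8 at -0.54 in replicate 3 (nearest -1.51). Dnajc12 lay at -4.34 in T-LM P6 replicate 2 (nearest -5.06), and Adam8 at -2.06 in K-LM P5 replicate 6 (nearest -3.06).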

How the results depend on the processing

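For the number of members called, 171 alternative values stayed within 1.5 times the reported count and 16 did not. At K-LM P6 against T-LM P6, 3 members were called, against 1 with the 75th percentile over all probes, 1 without a filter on dim probes, 0 with all 70 arrays in one model and 1 to 4 when a replicate was left out. From T-LM P3 to P6 the count of 3 became 1 with a filter on all arrays, which left 2 members to test, and 1 to 3 without a replicate. From T-LM P1 to P6 the filter left 1 member to test and 0 called. Leaving out a replicate gave 0 to 1 from K-LM P3 to P6 and 0 to 1 at K-LM P5 against T-LM P5. With the number as a replicate block, the count was 0 at K-LM P6 against T-LM P6 (Padi3 1.5, adjusted p = 0.0167), 0 from T-LM P1 to P6 and 1 at K-LM P5 against T-LM P5 (Cyba 2.19, adjusted p = 0.0031). From T-LM P3 to P6 it was 2 (Mtmr7, adjusted p = 0.0115). The block changed no other count, and outside KPT P1 and T-LM P1 the same-numbered samples did not all deviate together. Except where a setting left fewer members to test, the cause of these changes was not tested.

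Differences that changed sign were all uncalled. Dnajc12 at KPT P1 against T-LM P1 was 0.048 with the percentile over all probes, 0.28 with normexp, 0.31 with the deposited log2 values, 0.30 with a floor and -0.65 to 0.39 without a replicate. From K-LM P3 to P6, Arhgap33 was -0.58 with the index as a covariate, Dnajc12 -0.12 with a floor, and Dyrk4 -0.56 with normexp, -0.59 with deposited values, -0.31 with a floor, -0.38 without a slide term and -0.13 to 0.55 without a replicate. Padi3 from T-LM P3 to P6 was -0.13 with all probes, -0.22 with normexp, -0.21 with deposited values, -0.0544 with the index and -0.15 to 0.40 without a replicate. At P4, K-LM against T-LM, Padi3 was -0.090 with the replicate block and Cyba 0.33 with the index, and at P5 Adam8 was -0.046 with the index.

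Over all probes, calls ranged over the alternatives from 0 to 143 at KPT P1 against T-LM P1 (0 reported), 86 to 1997 from K-LM P3 to P6 (750), 411 to 1484 from T-LM P3 to P6 (1056), 0 to 2973 from T-LM P1 to P6 (2127), and, K-LM against T-LM, 0 to 1 at P3 (0), 0 to 335 at P4 (2), 176 to 793 at P5 (676) and 418 to 4001 at P6 (2571). The test of the difference of changes gave 102 to 282 (203). With the percentile over all probes, 1430 probes were higher and 1162 lower at K-LM P6, against 928 and 1643, and 418 and 349 from K-LM P3 to P6, against 544 and 206. From T-LM P1 to P6 the same setting gave 1326 higher and 736 lower, against 867 and 1260. From T-LM P3 to P6 it gave 596 and 583, against 860 and 196. Members at background in P0 have bounds only.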
